A study of Mus musculus with 10 samples.

Results

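The genes described here are 9 products of bone-forming osteoblasts: the osteocalcin paralogs Bglap, Bglap2 and Bglap3, the matrix glycoproteins Ibsp, Spp1 and Sparc, and the membrane proteins Ifitm5, Tmem119 and Panx3. They were taken by gene name from the count table of mouse femurs, each name matched 1 row, and the 9 rows were found among 38962 genes, all of them also among the 22088 genes that passed the filter on low counts and were tested. Femurs of 5 aged male C57BL/6J mice (22 months) were compared with femurs of 5 young male C57BL/6J mice (2 months), with 1 library per mouse. The aged mice came from the National Institute of Aging colony and were aged further in house, whereas the young mice were bought from the Jackson Laboratory, so age and source cannot be told apart. No transgene, allele or treatment was used in either group. The bones were flushed of marrow and the cortex was pulverized. Each library thus mixes the RNA of osteoblasts, osteocytes, osteoclasts, adhering tissue and remaining marrow. Fewer cells of a type cannot be told apart from less RNA per cell.

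Osteoblasts lay down a matrix of type I collagen and then mineralize it, and the proteins of these genes either fill that matrix or sit on the cells that make it. Osteocalcin is a small secreted protein that the cell carboxylates with the help of vitamin K, after which it binds the mineral and also circulates in blood. In the mouse it is encoded by the neighbouring genes Bglap and Bglap2, and the third paralog, Bglap3 or osteocalcin-related gene, is known mainly from kidney. Ibsp (bone sialoprotein) and Spp1 (osteopontin) are acidic, integrin-binding glycoproteins, and Sparc (osteonectin) binds collagen and calcium and is also made by fibroblasts and endothelium. Ifitm5 is a membrane protein largely restricted to osteoblasts and is mutated in a human form of osteogenesis imperfecta. Tmem119 is a membrane protein of osteoblasts that in brain marks microglia, and Panx3 forms channels in osteoblasts and cartilage cells.

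The coding sequences of the 3 osteocalcin paralogs are printed first because their likeness limits how far reads can be told apart. All 3 lie on the minus strand of chromosome 3 (GRCm38): Bglap at chr3:88383501-88384464, Bglap2 at chr3:88377736-88378699 and Bglap3 at chr3:88368616-88372743. Each coding sequence holds 288 bases in 4 coding exons, from the start codon to the stop codon, and was joined from the GENCODE transcripts and annotation. Capitals mark bases of Bglap2 and Bglap3 that differ from Bglap.
Bglap: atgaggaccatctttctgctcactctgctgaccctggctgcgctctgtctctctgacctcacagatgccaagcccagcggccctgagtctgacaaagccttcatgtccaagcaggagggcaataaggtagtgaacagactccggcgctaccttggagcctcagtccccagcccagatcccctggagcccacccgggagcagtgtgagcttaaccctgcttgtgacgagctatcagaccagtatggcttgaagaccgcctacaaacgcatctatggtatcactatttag
Bglap2: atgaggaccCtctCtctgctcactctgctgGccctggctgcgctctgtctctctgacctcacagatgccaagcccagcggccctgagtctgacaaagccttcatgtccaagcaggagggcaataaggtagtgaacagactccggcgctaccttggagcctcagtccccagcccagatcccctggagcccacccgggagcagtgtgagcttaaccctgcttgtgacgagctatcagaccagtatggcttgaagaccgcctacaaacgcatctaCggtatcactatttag
Bglap3: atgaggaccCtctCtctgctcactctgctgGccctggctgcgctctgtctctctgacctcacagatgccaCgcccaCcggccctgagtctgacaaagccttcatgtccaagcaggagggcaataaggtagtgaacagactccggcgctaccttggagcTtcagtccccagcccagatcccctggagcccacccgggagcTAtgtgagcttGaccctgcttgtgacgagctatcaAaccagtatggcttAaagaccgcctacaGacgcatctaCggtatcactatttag
Bglap and Bglap2 differed at 4 bases, that is 98.61% identity, and shared an unbroken stretch of 241 bases. Their proteins differed at 3 of 95 residues. Bglap3 differed from Bglap at 13 bases and 9 residues, and from Bglap2 at 9 bases and 6 residues, and the longest stretch it shared with either was 81 bases.

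Reads were 150 bases long, in pairs, per the study's methods. Of the 150-base windows along the annotated transcripts, 19.6% of those of Bglap and 28.6% of those of Bglap2 occurred letter for letter in the other gene, while 0 of 2913 windows of Bglap3 occurred in any other gene. With windows of 50 bases, a length chosen after the sequences were seen, the shares were 56.6% for Bglap, 88.2% for Bglap2 and 11.5% for Bglap3. How reads that fit several genes were counted was stated neither in the labels nor in the methods, so the division of counts between Bglap and Bglap2 is uncertain, and both are also given as a sum. Of the other members, Ifitm5 shared 13.1% of its 150-base windows with the annotated transcript Gm45717 and Spp1 shared 1.63% with Gm42793, which overlaps the start of Spp1 and held 97 to 274 counts in aged and 167 to 322 counts in young libraries. Ibsp, Sparc, Tmem119 and Panx3 shared 0 windows of 150 bases with another gene.

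The libraries held 31788232 to 45075335 counts in aged and 33447009 to 40395050 counts in young mice. Levels are given as CPM, the count of a gene scaled to the size of its library after TMM normalization (trimmed mean of M values), and fold changes are aged over young on the log2 scale with their standard error (SE). Groups were compared by the quasi-likelihood test of edgeR, and p-values were adjusted by the Benjamini-Hochberg method over the 22088 tested genes. An adjusted p of 0.05 or less was the threshold for a call. Together the 9 genes took 0.0677% to 0.295% of the counts in aged libraries (median 0.162%) and 0.355% to 0.638% in young libraries (median 0.587%), and the ranges did not overlap. Sparc alone made up 63.7% to 74.3% of that sum in aged and 66.6% to 72.5% in young libraries. The main bone collagen gene Col1a1 took 1.04% to 2.59% of all counts in aged and 3.06% to 5.21% in young libraries.

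Of the 9 genes, 4 were lower in aged femurs (Bglap, Bglap2, Sparc and Tmem119), 1 was higher (Bglap3) and 4 did not pass the test (Ibsp, Spp1, Ifitm5 and Panx3). Among all tested genes 3.61% were called lower and 3.68% higher. In the 4 genes called lower every aged library lay below every young library, a pattern seen in 4.12% of tested genes, and in Bglap3 every aged library lay above every young library, seen in 3.68%. The median log2 fold change of the 9 genes was -1.17, against 0.01 over all tested genes, and 8 of the 9 estimates were negative. The plot of levels by mouse shows all values.

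**Figure D1:**
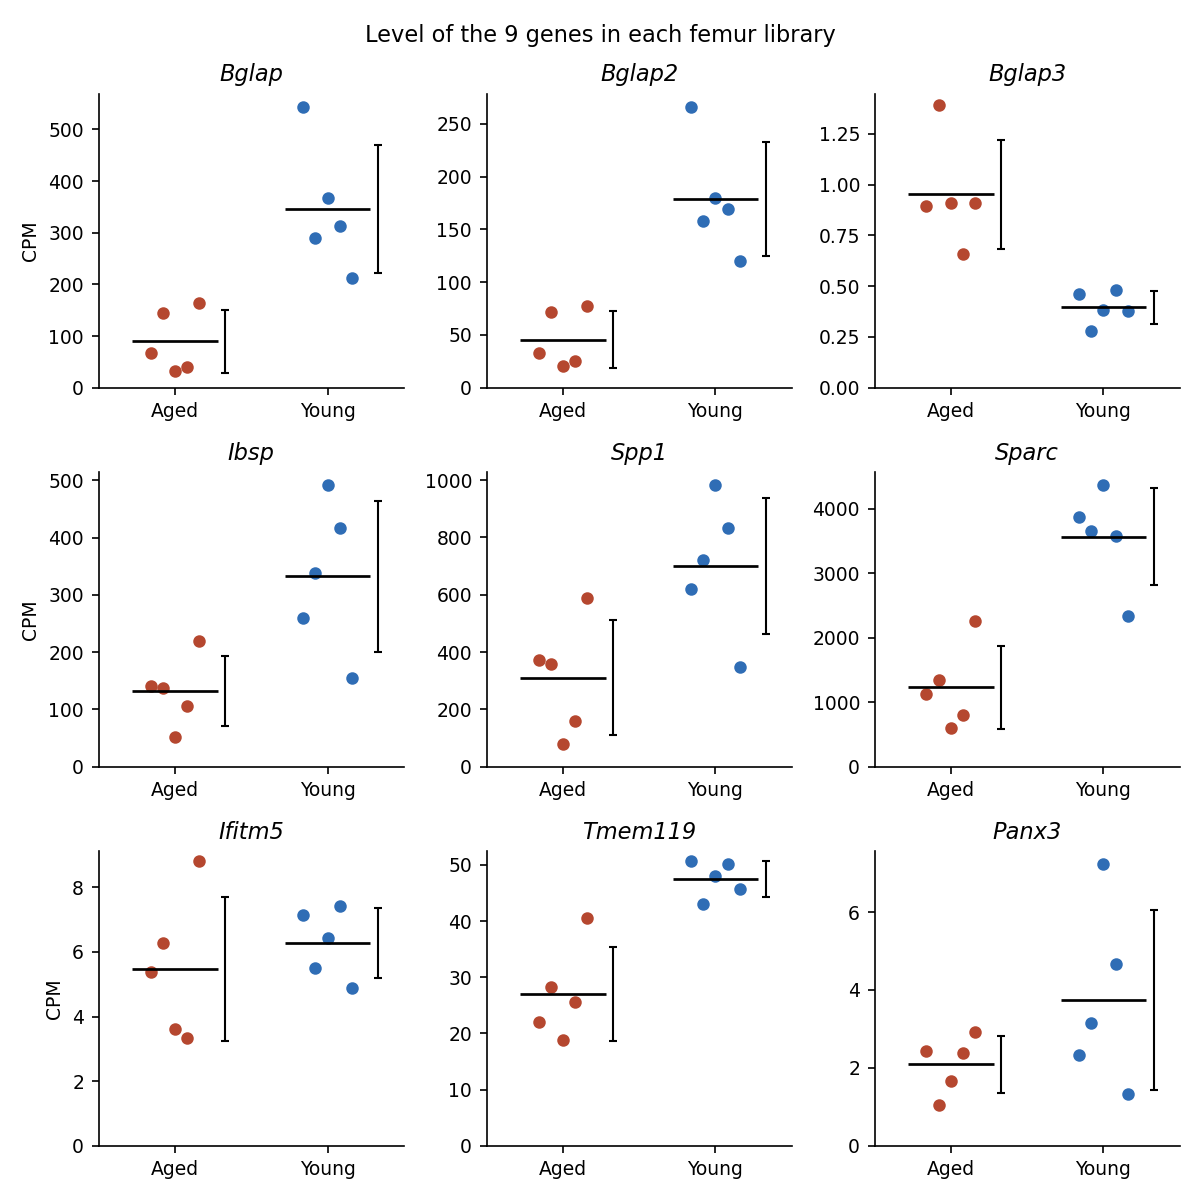
CPM of the 9 genes (vertical axes, each starting at 0) in the 5 aged and the 5 young libraries, 1 dot per mouse, with the group mean as a line and the SD as a bar. The aged dots lie below all young dots for Bglap, Bglap2, Sparc and Tmem119, above all young dots for Bglap3, and overlap them in the other 4 panels.

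Both osteocalcin genes fell in aged femurs, with the lowest fold change estimates of the 9 genes. Bglap had 66.5, 145, 33.2, 40.4 and 164 CPM in aged mice 1 to 5, against 544, 291, 367, 313 and 212 CPM in young mice 1 to 5. Aged mice 2 and 5 were the highest of their group and still lay below the lowest young mouse, young 5. The log2 fold change was -1.94 (SE 0.45, adjusted p = 0.0256 by edgeR), that is 3.85-fold lower in aged femurs. Within the aged group Bglap varied 4.93-fold between the lowest and the highest mouse, against 2.56-fold in the young group.

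Bglap2 followed the same order of mice. It had 32.8, 71.9, 20.5, 25.1 and 77.4 CPM in aged mice, against 266, 158, 180.1, 169.7 and 119.7 CPM in young mice, again without overlap. Its log2 fold change was -1.97 (SE 0.38, adjusted p = 0.0120 by edgeR). With both genes summed into 1 feature, a choice made after the data were seen, the level was 135 ± 87.6 CPM in aged and 524 ± 178 CPM in young femurs (SD, n = 5 each), with a log2 fold change of -1.95 (SE 0.43, adjusted p = 0.0205 by edgeR). The ratio of Bglap2 to Bglap counts was 0.473 to 0.620 in aged and 0.490 to 0.564 in young libraries, and its log2 difference of 0.03 was smaller than the SD within either group (two-sided exact permutation test, p = 0.738).

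The call of Bglap depended on single libraries and on covariates, while its direction did not. Its adjusted p by edgeR was 0.0561 without aged 3, 0.0658 without aged 4, 0.0604 without young 1, 0.0577 without young 2 and 0.0624 without young 4, with a log2 fold change of -1.72 or lower in each of these fits. Muscle markers, genes of the contractile apparatus, had a summed level of 40990 to 112700 CPM in aged and 24220 to 71860 CPM in young libraries, with 0 of the 29 tested markers called by edgeR (10 higher at an unadjusted p under 0.05, 6 called higher with DESeq2 and 1 with limma-voom). With the mean muscle level as a covariate the adjusted p by edgeR was 0.125 for Bglap and 0.0774 for Bglap2, at log2 fold changes of -1.87 and -1.86. Over 23 alternatives the adjusted p ranged from 0.00211 to 0.519 for Bglap, with 13 passing, and from 0.000207 to 0.42 for Bglap2, with 21 passing.

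Bglap3 went the other way at a very low level. It had 0.895, 1.39, 0.911, 0.656 and 0.911 CPM in aged mice, against 0.462, 0.277, 0.381, 0.480 and 0.377 CPM in young mice. These levels rest on 24 to 70 counts per aged library and 11 to 23 counts per young library, and the lowest aged mouse lay above the highest young mouse. This was a log2 fold change of 1.26 (SE 0.26, adjusted p = 0.0123 by edgeR), that is 2.40-fold higher in aged femurs. A filter at 1 CPM removed the gene from the test, and of the 22 alternatives that kept it 21 passed.

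Within each library, Bglap3 counts were set against the sum of Bglap and Bglap2, a ratio that does not depend on how the libraries are scaled. For every 1000 counts of Bglap and Bglap2 there were 9.15, 6.46, 17.3, 10.2 and 3.83 counts of Bglap3 in aged mice, against 0.586, 0.646, 0.728, 1.01 and 1.17 in young mice. The lowest aged value, aged 5, was above the highest young value, young 5, and the mean ratio was 10.4-fold higher in aged femurs (log2 difference 3.38, two-sided exact permutation test, p = 0.00794, the smallest that 5 against 5 allows, adjusted p = 0.0238 over the 6 ratios). The ratio carries both the fall of the pair and the rise of Bglap3. Bglap and Bglap2 each lay lower in every aged library, and Bglap3 lay higher. The ratio therefore had to separate the groups, and its p-value adds no evidence beyond theirs.

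The map of the cluster sets these changes beside the neighbouring genes. Within 60 kb of a paralog 11 other genes were in the table. Of these, Sema4a, a transmembrane semaphorin, was higher in aged femurs (69.9 ± 15.5 CPM in aged and 47.7 ± 5.39 CPM in young, SD, n = 5 each, log2 fold change 0.55, adjusted p = 0.0335 by edgeR). Cct3, Glmp, Tmem79, Smg5, Paqr6, Pmf1, Slc25a44 and the unprocessed pseudogenes Gm21956 and Gm6821 did not pass the test, and Gm42814 was too low to be tested. The pseudogenes lie between the paralogs, Gm21956 between Bglap3 and Bglap2 and Gm6821 between Bglap2 and Bglap. Gm6821 had 0.627 ± 0.194 CPM in aged and 0.986 ± 0.195 CPM in young femurs (SD, n = 5 each, log2 fold change -0.63, adjusted p = 0.139 by edgeR). Gm21956 had 0.418 ± 0.209 CPM in aged and 0.674 ± 0.156 CPM in young femurs (SD, n = 5 each, log2 fold change -0.65, adjusted p = 0.234 by edgeR).

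**Figure D2:**
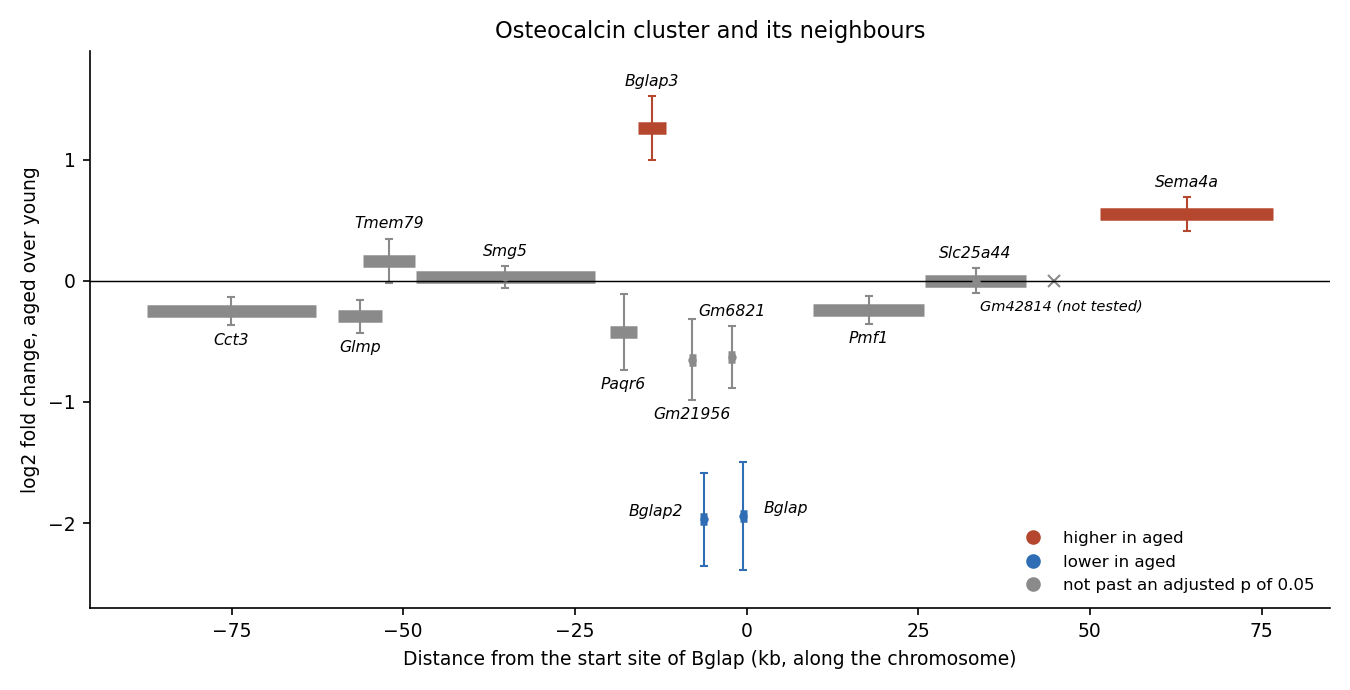
log2 fold change, aged over young (vertical axis, bars SE), of the osteocalcin paralogs and their neighbours, drawn as blocks at their distance in kb from the start site of Bglap. Bglap and Bglap2 lie near -1.94 and -1.97, Bglap3 at 1.26 and Sema4a at 0.55, and the grey blocks of genes that did not pass lie between -0.65 and 0.17.

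The promoters of Bglap and Bglap3 are shown because the 2 genes moved in opposite directions. RefSeq promoter windows (GRCm38.p6) run from 250 bases before to 50 bases after the start site. Windows were given for 6 of the 9 members, while Bglap2, Tmem119 and Panx3 had none in the table. Motifs searched on both strands were AACCAC (the RUNX core, bound by a family whose member Runx2 sets the osteoblast fate), TATAAA (the TATA box) and CANNTG (the E-box). A shifted form of the core, ACCACA, was added after the sequences were seen and can overlap the core. Capitals mark the RUNX core, ACCACA and the TATA box on either strand, but not the E-box.
Bglap, chr3:88384417-88384716, minus strand: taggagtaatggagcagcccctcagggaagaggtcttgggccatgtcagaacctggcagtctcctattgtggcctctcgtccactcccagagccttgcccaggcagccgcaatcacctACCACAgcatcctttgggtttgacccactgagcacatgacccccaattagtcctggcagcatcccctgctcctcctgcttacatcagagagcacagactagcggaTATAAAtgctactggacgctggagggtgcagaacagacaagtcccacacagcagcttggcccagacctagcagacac
Bglap3, first start site, chr3:88372692-88372991, minus strand: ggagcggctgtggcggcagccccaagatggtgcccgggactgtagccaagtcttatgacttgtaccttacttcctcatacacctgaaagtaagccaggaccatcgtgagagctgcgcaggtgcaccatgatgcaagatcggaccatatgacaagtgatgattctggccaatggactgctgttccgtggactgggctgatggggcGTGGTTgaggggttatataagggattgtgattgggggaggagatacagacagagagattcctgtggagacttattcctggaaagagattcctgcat
The Bglap window held the TATA box from 27 to 22 bases before the start site, ACCACA from 132 to 127 bases before it and 1 E-box. The window at the first start site of Bglap3 held the RUNX core on the opposite strand from 46 to 41 bases before the start site, 4 E-boxes and 0 matches to TATAAA. Other forms of the TATA box, such as the stretch tatataa in this Bglap3 window, were not searched. Ibsp held the TATA box on the opposite strand from 28 to 23 bases before its start site, and the first start site of Spp1 held the RUNX core, overlapped by ACCACA, from 129 to 124 bases before it and the TATA box from 211 to 206 bases before it. Sparc held ACCACA after its start site, and Ifitm5 held 1 E-box and none of the other 3 motifs. Over all 32851 promoter windows, 13% held the RUNX core, 13.6% the TATA box, 72.3% the E-box and 16.8% the form ACCACA. A match is a description only.

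Sparc was the most abundant of the 9 genes per length in both groups. It had 1128, 1346, 607, 795 and 2267 CPM in aged mice, against 3876, 3659, 4375, 3586 and 2341 CPM in young mice. Aged 5, the highest aged mouse, lay just below young 5, the lowest young mouse. Its log2 fold change was -1.54 (SE 0.31, adjusted p = 0.0121 by edgeR), that is 2.90-fold lower in aged femurs, and of 23 alternatives 21 passed. Of 12 tested growth plate cartilage markers, 5 were lower in aged femurs (9 at an unadjusted p under 0.05 by edgeR). Their mean level was also used as a covariate. With it the log2 fold change of Sparc was -0.87 (adjusted p = 0.525 by edgeR, against 1.17e-05 to 0.525 over all alternatives). The collagen gene Col1a1 had a log2 fold change of -1.22 (SE 0.30, adjusted p = 0.0267 by edgeR), with 12561 to 29557 CPM in aged and 27822 to 59885 CPM in young mice.

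Relative to these products, osteocalcin was lower in aged libraries by an amount that did not pass the test. Per 1000 counts of Sparc there were 82.4 to 161 counts of Bglap and Bglap2 in aged and 123 to 209 in young libraries (log2 difference -0.50, two-sided exact permutation test, p = 0.0635, adjusted p = 0.0952). Per 1000 counts of Col1a1 there were 3.66 to 14.6 counts in aged and 9.14 to 16.2 in young libraries (log2 difference -0.92, two-sided exact permutation test, p = 0.0556, adjusted p = 0.0952). Aged 2 held the highest aged value of both ratios. Without it the differences were -0.66 and -1.20 and both passed (two-sided exact permutation test, adjusted p = 0.0119 each). When each of the 10 libraries was left out in turn, only this case passed for either ratio. The highest adjusted p was 0.202 for the ratio to Sparc and 0.19 for that to Col1a1 (two-sided exact permutation test).

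Ibsp and Spp1, which lie on chromosome 5 together with Dmp1 and Mepe, had lower means in aged femurs but overlapping values. Ibsp had 142, 137, 52.4, 106 and 220.1 CPM in aged mice, against 260, 339, 492, 417 and 154 CPM in young mice. Young 5 alone lay inside the aged range. The log2 fold change was -1.34 (SE 0.37) and the adjusted p of 0.0513 by edgeR just missed the threshold. Ibsp passed without aged 5 (adjusted p = 0.0392 by edgeR) and without young 5 (adjusted p = 0.0297 by edgeR), and it also passed with DESeq2 (adjusted p = 0.00178) and with limma-voom (adjusted p = 0.0384), among 7 of 23 alternatives that passed, with adjusted p from 0.00178 to 0.963. With the cartilage covariate its log2 fold change was -0.10 (adjusted p = 0.963 by edgeR).

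Spp1 had 372, 358, 78.7, 159 and 588 CPM in aged mice, against 621, 721, 981, 832 and 348 CPM in young mice. Its aged values spread 7.46-fold from aged 3 to aged 5, the widest spread of the 9 genes in aged mice, and young 5 lay below 3 of the 5 aged mice. The log2 fold change was -1.17 (SE 0.46, adjusted p = 0.139 by edgeR). Osteoclasts and macrophages also express Spp1. The summed level of 9 osteoclast markers was 657 to 1641 CPM in aged and 1088 to 2177 CPM in young libraries, with 0 of 9 called by edgeR (2 lower at an unadjusted p under 0.05, 1 called lower with DESeq2 and 0 with limma-voom). That of 10 macrophage markers was 179 to 560 CPM in aged and 269 to 404 CPM in young libraries, with 0 of 10 called by edgeR (1 higher at an unadjusted p under 0.05, and 0 called with DESeq2 or limma-voom). Their part in the Spp1 values was not tested.

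The ratio of Ibsp to Spp1 did not differ between the groups beyond their spread. It was 0.375 to 0.667 in aged and 0.418 to 0.501 in young libraries (log2 difference 0.03, SD 0.44 in aged and 0.11 in young, n = 5 each, two-sided exact permutation test, p = 0.873). Aged 3 and aged 4 had 0.666 and 0.667, and the other 3 aged mice had 0.375 to 0.384. The neighbours Dmp1 and Mepe, matrix proteins of osteocytes, had log2 fold changes of -0.28 (SE 0.30, adjusted p = 0.579 by edgeR) and -0.88 (SE 0.39, adjusted p = 0.189 by edgeR).

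Ifitm5 was the member closest to no change. It had 5.37, 6.27, 3.61, 3.33 and 8.83 CPM in aged mice, against 7.13, 5.52, 6.45, 7.41 and 4.88 CPM in young mice. The aged values lay on both sides of the young range. Ifitm5 had a log2 fold change of -0.19 (SE 0.24, adjusted p = 0.650 by edgeR). Within libraries Ifitm5 stood higher against Sparc in aged mice, with 4.77, 4.66, 5.97, 4.20 and 3.90 counts of Ifitm5 per 1000 counts of Sparc in aged mice, against 1.84, 1.51, 1.48, 2.07 and 2.09 in young mice. The ratio was 2.62-fold higher in aged femurs without overlap (log2 difference 1.39, two-sided exact permutation test, p = 0.00794, adjusted p = 0.0238). The fold changes of Ifitm5 and Sparc thus differed by more than the spread between mice.

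Tmem119 was the most even of the members in young mice. It had 22.0, 28.2, 18.8, 25.7 and 40.6 CPM in aged mice, against 50.8, 42.9, 47.9, 50.1 and 45.7 CPM in young mice. The young values spanned 1.18-fold and the aged values 2.17-fold, and aged 5 lay just under young 2. This gave a log2 fold change of -0.81 (SE 0.17, adjusted p = 0.0121 by edgeR), that is 1.75-fold lower in aged femurs, and 22 of 23 alternatives passed.

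Panx3 had 2.43, 1.05, 1.67, 2.37 and 2.91 CPM in aged mice, against 2.33, 3.15, 7.24, 4.68 and 1.32 CPM in young mice. The groups overlapped, young 3 stood highest and young 5 lay below 4 of the 5 aged mice. The log2 fold change was -0.83 (SE 0.42, adjusted p = 0.231 by edgeR). Cartilage also expresses Panx3, and the summed level of 15 growth plate cartilage markers was 744 to 1631 CPM in aged and 1056 to 2778 CPM in young libraries, with 5 of the 12 tested markers lower and young 3 the highest, young 5 the lowest of the young group. At an unadjusted p under 0.05 by edgeR, 9 of the 12 were lower and 0 higher. With DESeq2 8 were called lower, and with limma-voom 5. The sum of the markers did not pass (two-sided exact permutation test, p = 0.0556, adjusted p = 0.278 over 10 marker lists). A fit with the mean level of these markers as a covariate called 0 of the 9 members by edgeR (Bglap2 and Tmem119 lower and Bglap3 higher at an unadjusted p under 0.05). In the whole table it called 7 genes lower and 4 higher. In that fit the log2 fold change of Panx3 was 0.82 and that of Bglap -1.43 (adjusted p = 0.585 and 0.519 by edgeR), and the adjusted p of Panx3 over its 23 alternatives was 0.0858 to 0.585.

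Markers of tendon and periosteum, whose fibroblasts also make Sparc, summed to 159 to 649 CPM in aged and 858 to 1104 CPM in young libraries, without overlap, with 2 of 7 called lower (two-sided exact permutation test of the sum, p = 0.00794, adjusted p = 0.0794 over 10 marker lists). Their part in the Sparc values was not tested. Markers of osteocytes summed to 235 to 735 CPM in aged and 477 to 636 CPM in young libraries, with 1 of the 10 tested markers called higher and 0 lower by edgeR (4 lower at an unadjusted p under 0.05, and 2 called lower with DESeq2 and with limma-voom). Marrow markers were present despite the flushing. Those of red cell precursors summed to 4091 to 10970 CPM in aged and 5518 to 10890 CPM in young libraries. Of 12 tested, edgeR called 0 (4 lower at an unadjusted p under 0.05, 3 called lower with DESeq2 and 0 with limma-voom). Neutrophil markers summed to 1539 to 5164 CPM in aged and 1888 to 2819 CPM in young libraries. Of 12 tested, 0 were called by edgeR, DESeq2 or limma-voom (1 higher at an unadjusted p under 0.05).

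Per length, in CPM per kb of merged exons, the order of levels in aged femurs was Sparc (324 ± 171), Spp1 (189 ± 121), Bglap (145 ± 98.1), Bglap2 (96.7 ± 57.4), Ibsp (63.6 ± 29.5), Tmem119 (11.7 ± 3.62), Ifitm5 (7.16 ± 2.92), Panx3 (0.608 ± 0.212) and Bglap3 (0.363 ± 0.102) (SD, n = 5). In young femurs Bglap (559 ± 201) stood second behind Sparc (942 ± 199) and ahead of Spp1 (425 ± 145) and Bglap2 (380 ± 115), and from Ibsp (161 ± 63.8) downwards the order was the same (SD, n = 5). The ranges over mice of neighbours in this order often overlapped, although both genes of a pair were measured in the same library. The ranges of each neighbouring pair from Sparc down to Ibsp overlapped in aged mice, and those of each neighbouring pair from Sparc down to Bglap2 overlapped in young mice. Within libraries, Sparc exceeded Spp1, Bglap exceeded Bglap2 and Bglap2 exceeded Ibsp in 5 of 5 aged libraries. Sparc exceeded Bglap in 5 of 5 young libraries. Spp1 exceeded Bglap in 3 of 5 aged libraries, while Bglap exceeded Spp1 in 4 of 5 young libraries. Spp1 exceeded Bglap2 in 3 of 5 young libraries. The steps from Ibsp to Tmem119 and from Ifitm5 to Panx3 were without overlap in both groups.

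Related genes were read in the same fit, and the plot of fold changes shows them beside the members. The counts below stand beside 3.61% of all tested genes called lower and 3.68% called higher. Among 20 regulators of osteoblasts and genes of mineralization, 19 were tested, 4 were lower and 0 higher (0 higher also at an unadjusted p under 0.05 and with DESeq2 and limma-voom), with a median log2 fold change of -0.16. The 4 lower genes were the type I collagen genes Col1a1 and Col1a2 (log2 fold change -1.30, SE 0.29, adjusted p = 0.0170 by edgeR), the phosphatase gene Alpl, which frees phosphate for mineral (58.2 ± 20.2 CPM in aged and 132 ± 30.0 CPM in young, SD, n = 5 each, log2 fold change -1.18, adjusted p = 0.0122 by edgeR), and Smpd3, a sphingomyelinase gene needed for bone mineralization in mice (log2 fold change -1.04, adjusted p = 0.0113 by edgeR). The transcription factor genes that set the osteoblast fate, Runx2 and Sp7, were named after their values were seen and had log2 fold changes of -0.14 (SE 0.12, adjusted p = 0.506 by edgeR) and -0.25 (SE 0.16, adjusted p = 0.361 by edgeR).

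Among 12 genes of the vitamin K-dependent proteins and their processing, 2 were lower and 0 higher (0 higher also at an unadjusted p under 0.05 and with DESeq2 and limma-voom), with a median of -0.25. Both were among the 5 genes that act in the processing (Ggcx, Vkorc1, Vkorc1l1, Furin and Calu), and the other 7 encode vitamin K-dependent proteins themselves (Mgp, Gas6, Pros1 and Prrg1 to Prrg4). They were Vkorc1l1, a vitamin K reductase gene (28.4 ± 3.40 CPM in aged and 38.6 ± 3.62 CPM in young, SD, n = 5 each, log2 fold change -0.44, adjusted p = 0.0237 by edgeR), and Calu, whose product calumenin acts on the carboxylation step (78.6 ± 16.5 CPM in aged and 116 ± 17.6 CPM in young, SD, n = 5 each, log2 fold change -0.57, adjusted p = 0.0392 by edgeR). The count was 0 without aged 3, young 2 or young 4, and 1 without aged 4, young 1 or young 3. Ggcx, the gamma-carboxylase gene, was named after its value was seen and had a log2 fold change of -0.24 (SE 0.10, adjusted p = 0.140 by edgeR).

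Of 18 relatives of the members, 15 were tested, 3 were lower and 1 was higher, with a median of 0.05. The lower count was 2 without aged 1, aged 3, aged 5 or any 1 young library, and 3 without aged 2 or aged 4. It was also 2 with total-count scaling, without a filter on low counts and with the muscle covariate. With the cartilage covariate it was 0. Relatives of Sparc made up the lower genes. Spock1, a proteoglycan gene, had 0.169 ± 0.105 CPM in aged and 1.38 ± 0.543 CPM in young femurs (SD, n = 5 each, log2 fold change -2.94, adjusted p = 0.00120 by edgeR). Its aged level was near the floor of the counts, so the size of this fold change is uncertain. Fstl1, a secreted glycoprotein gene, had 52.1 ± 9.83 CPM in aged and 104 ± 4.23 CPM in young femurs (SD, n = 5 each, log2 fold change -1.0, adjusted p = 0.000544 by edgeR). Smoc2, a calcium-binding matrix protein gene, had 23.3 ± 9.61 CPM in aged and 49.95 ± 8.99 CPM in young femurs (SD, n = 5 each, log2 fold change -1.10, adjusted p = 0.0448 by edgeR). Ifitm1, an interferon-induced relative of Ifitm5, was higher (10.3 ± 2.09 CPM in aged and 6.75 ± 0.843 CPM in young, SD, n = 5 each, log2 fold change 0.62, adjusted p = 0.0276 by edgeR), a call that was lost without aged 2, aged 5, young 2, young 4 or young 5, where 0 relatives were higher. Of 12 receptors of the member proteins, mainly integrins, 10 were tested and 0 passed edgeR's test in either direction, also with DESeq2 and limma-voom, while 3 were lower and 0 higher at an unadjusted p under 0.05 (2 lower with DESeq2 and 3 lower with limma-voom).

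**Figure D3:**
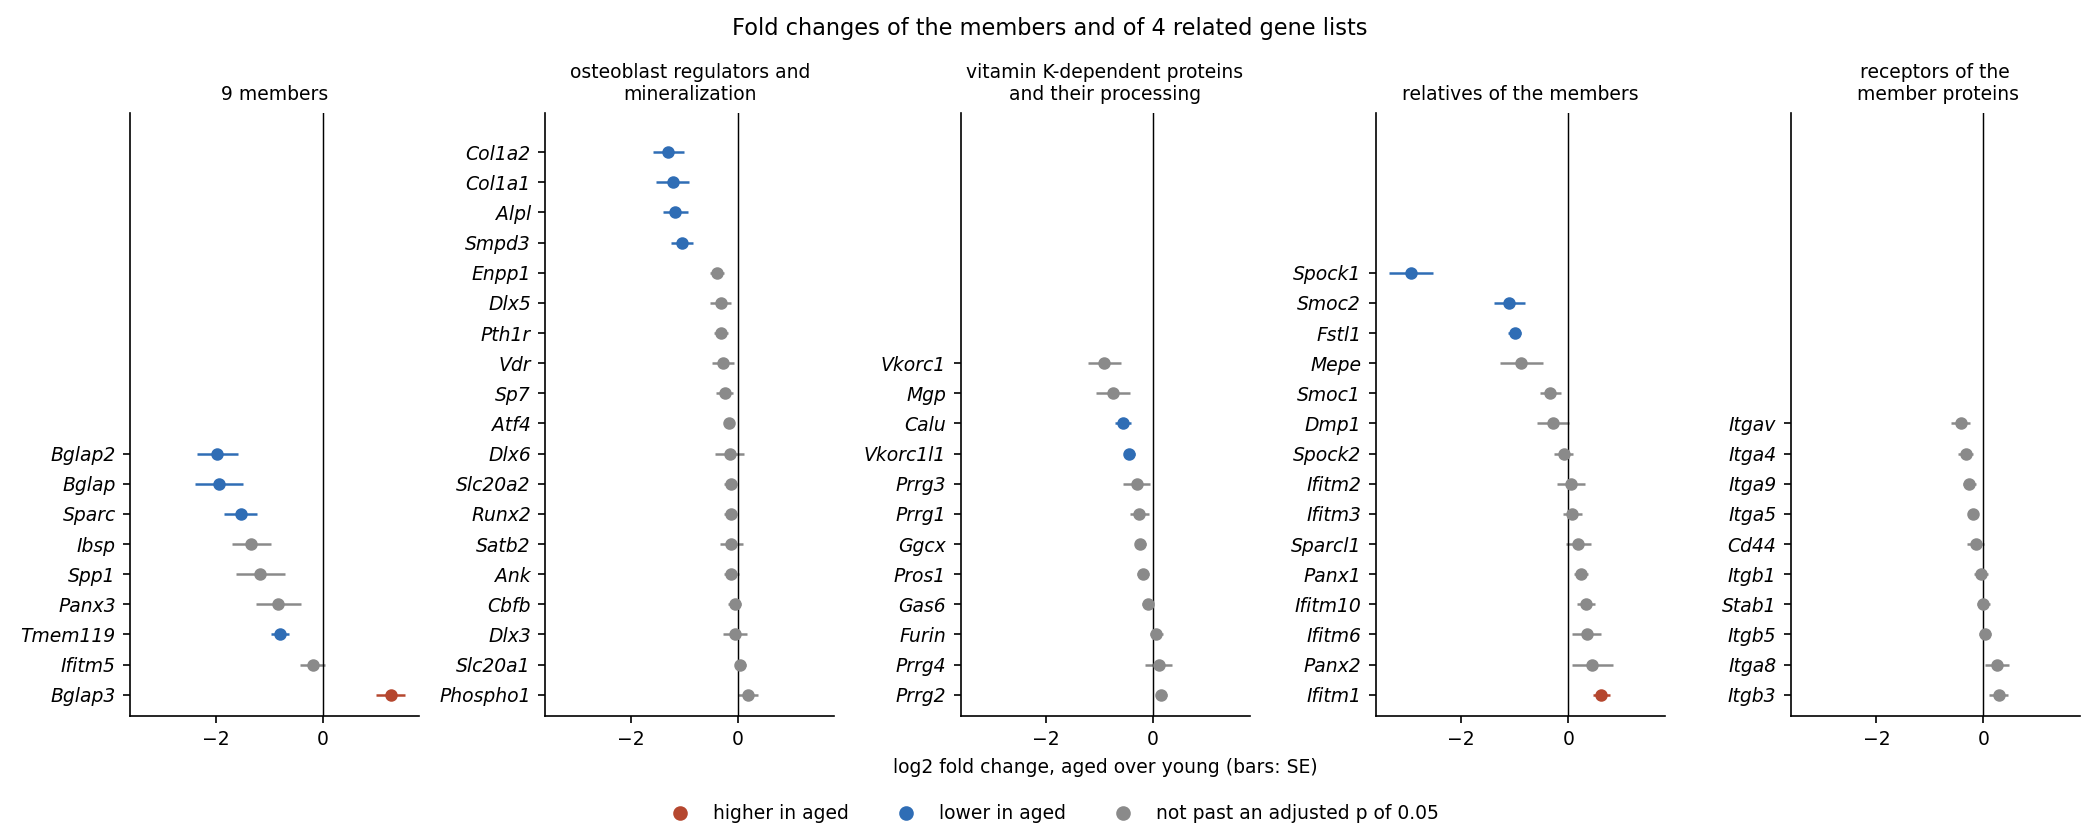
log2 fold change, aged over young (horizontal axes, bars SE), of the 9 members and of the tested genes of 4 related lists, coloured by call. Of the members 4 lie left of 0 as lower calls between -1.97 and -0.81 and Bglap3 lies right at 1.26, and of the lists the regulators hold 4 lower calls and the receptors none.

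Most pairs of members without Bglap3 deviated together between mice of one age when both age groups were pooled. After subtraction of the mean of each age group from the log2 CPM, Pearson's r over the 10 libraries ranged from 0.046 to 0.995 over the 28 pairs of members without Bglap3, with a median of 0.788 and 22 pairs above 0.5. Bglap and Bglap2, which share reads, had r = 0.995 (Spearman's rho 0.988), Ibsp and Spp1 r = 0.95 (rho 0.927), Spp1 and Sparc r = 0.944 (rho 0.770) and Bglap and Ifitm5 r = 0.915 (rho 0.927). All pairs share libraries and their depth, so these are descriptions. Without the 2 libraries farthest from the median of the first gene of each pair, the 28 values of r ranged from -0.14 to 0.991 with a median of 0.678, and 21 stayed above 0.5. The pooled r of the pairs of Panx3 ran from 0.046 with Bglap2 and 0.079 with Bglap to 0.687 with Ibsp. Taken by age group, some pairs differed. Sparc and Tmem119 had r = 0.904 in aged and 0.323 in young mice, and Ibsp and Tmem119 0.856 and 0.21. Panx3 and Ibsp had r = 0.357 in aged and 0.98 in young mice, and Panx3 and Spp1 0.236 and 0.961. Ibsp and Spp1 were alike at 0.975 and 0.992.

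The map of deviations shows which mice set this pattern. The mean standardized deviation of the 8 members was 1.57 in aged 5 and 0.49 in aged 2, and -1.43 in aged 3 and -0.65 in aged 4. In young mice it was lowest in young 5 (-1.0) and highest in young 3 (0.55). Aged 5, the aged mouse with the highest levels, and young 5, the young mouse with the lowest, came closest to the other group. Over the 8 pairs of Bglap3, r ranged from -0.28 to 0.566 with a median of 0.268, and 3 pairs were above 0.5. These were the pairs with Bglap2 (r = 0.566, rho 0.636), Bglap (r = 0.564, rho 0.648) and Ifitm5 (r = 0.552, rho 0.745). Without the 2 farthest libraries, chosen as above, their r fell to 0.468, 0.48 and 0.329.

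**Figure D4:**
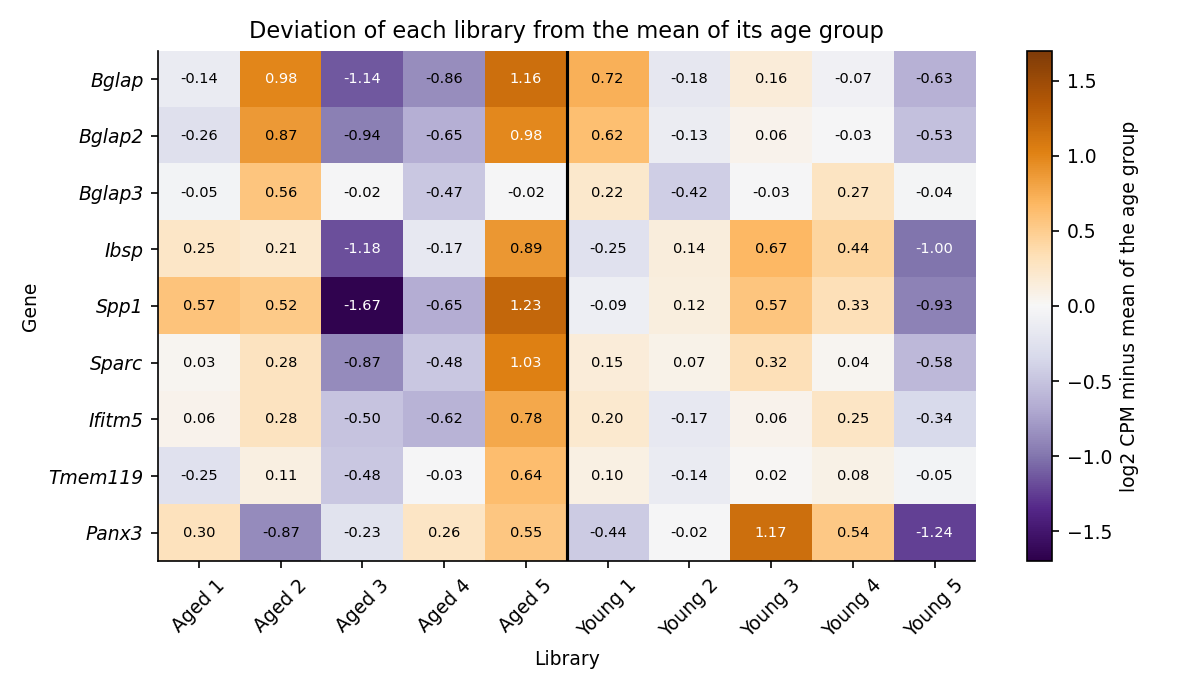
log2 CPM minus the mean of the age group for the 9 genes (rows) in the 5 aged and 5 young libraries (columns), in colour and as printed values. Aged 5 is above its group mean for 8 of the genes and Bglap3 is near it at -0.02, while aged 3 is below its mean for all 9, with Spp1 at -1.67.

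The tested genes whose deviations were most like the mean of the 8 members were Fndc3b (r = 0.985), Rftn2 (r = 0.977), Gja1 (r = 0.975), Cpz (r = 0.975) and Cadm1 (r = 0.973), over 10 libraries and 22088 genes. Gja1, the gap junction protein of osteoblasts and osteocytes, was itself lower in aged femurs (86.5 ± 32.5 CPM in aged and 278 ± 53.5 CPM in young, SD, n = 5 each, log2 fold change -1.68, adjusted p = 0.00305 by edgeR), as was Cpz, a carboxypeptidase gene (log2 fold change -1.87, adjusted p = 0.0361 by edgeR). Fndc3b and Rftn2 did not pass, with log2 fold changes of -0.35 (adjusted p = 0.0864 by edgeR) and -0.73 (adjusted p = 0.0757 by edgeR). Cadm1, a cell adhesion gene, had a log2 fold change of 0.11 (SE 0.19, adjusted p = 0.737 by edgeR). Genes alike between mice of one age thus had unlike fold changes between the ages. The same profile had r = 0.951 with Alpl and -0.072 with the mineralization gene Phospho1. With the mean levels of the 10 marker lists, r ran from -0.422 for endothelium to 0.896 for osteoclasts. It was 0.714 for osteocytes, 0.479 for growth plate cartilage, 0.441 for neutrophils and -0.098 for muscle. For Bglap3 alone the 3 most alike genes were Actg2 (r = 0.951), Zfp703 (r = 0.901) and Gm29560 (r = 0.893), of which none passed the test between the ages (adjusted p = 0.287, 0.777 and 0.253 by edgeR).

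The 6 ratios within libraries are drawn together. Of these, Bglap3 to the sum of Bglap and Bglap2 and Ifitm5 to Sparc separated the groups, and the other 4 overlapped. For Bglap3 to the sum, this followed from the separation of each of its genes.

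**Figure D5:**
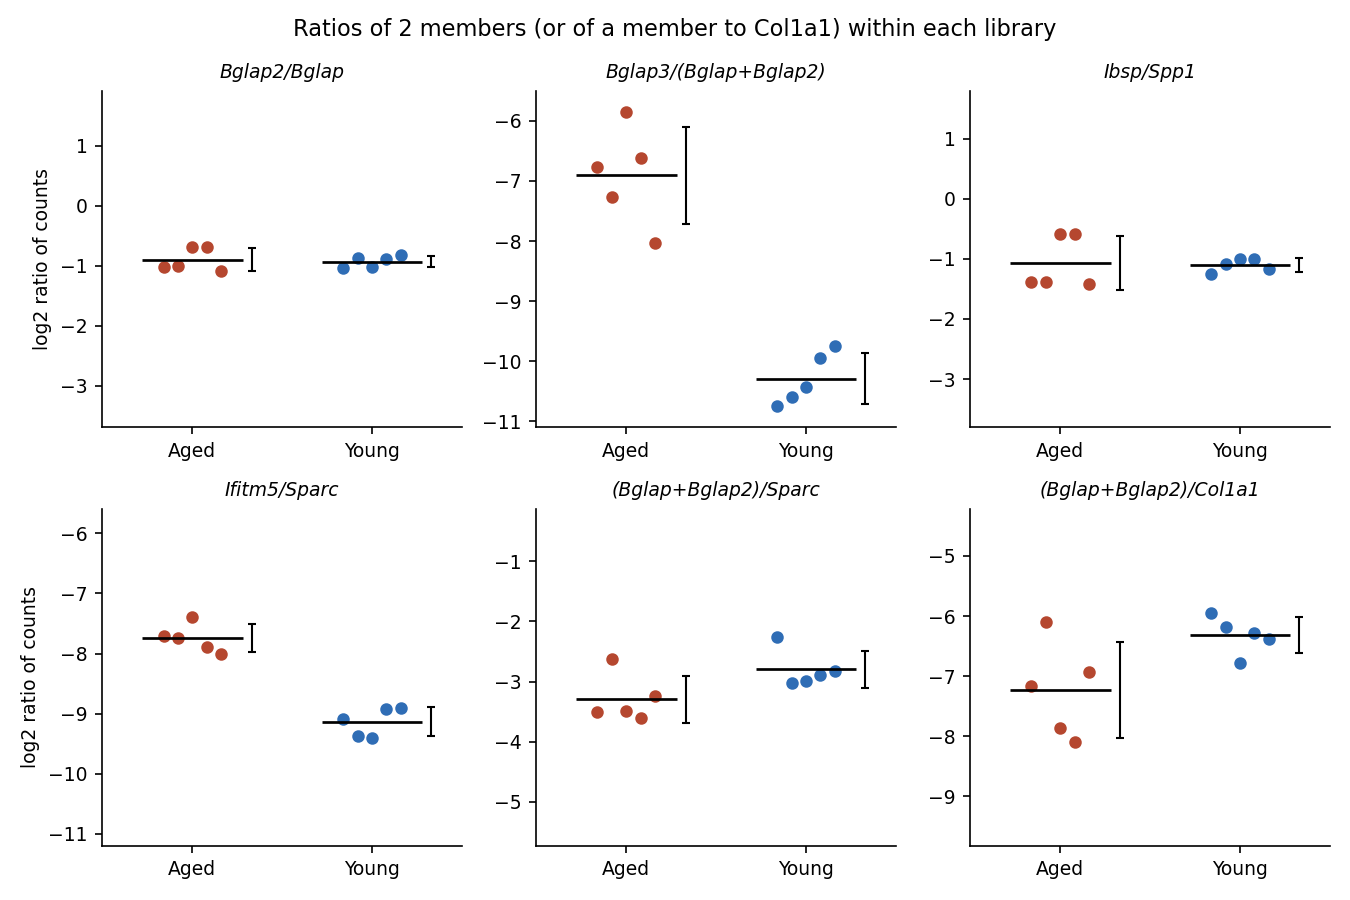
log2 ratio of counts (vertical axes, each spanning the same length) within each of the 5 aged and 5 young libraries, 1 dot per mouse, with the group mean as a line and the SD as a bar. The aged dots lie above all young dots for Bglap3/(Bglap+Bglap2) and Ifitm5/Sparc, with mean differences of 3.38 and 1.39, and overlap the young dots in the other 4 panels.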

How the data were processed

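Femur RNA of 10 mice was sequenced as 1 library each. Per the study's methods, the authors used Cutadapt for trimming, STAR for alignment to GRCm38.p6 and featureCounts for counting per gene. The labels name the human build hg38, whereas the gene identifiers and coordinates are those of mouse GRCm38, and all 9 members have the same identifier, start and end in GENCODE vM21. The methods name both ribosomal RNA depletion and poly-A selection. Neither source says whether strand was used in counting. The deposited values are raw read counts per gene, and the deposited table also gives the merged exon length of each gene, used for levels per kb. All 10 count columns were mapped to mice by their labels, and 0 were left out.

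The count model was edgeR 4.0.16 (R 4.3.3) with filterByExpr (minimum count 10, minimum total 15), TMM scaling and a robust quasi-likelihood fit without covariates. SEs were obtained from the fold change and its F statistic. Libraries of one group are separate mice, so the p-values measure the spread between mice. Ratios used counts plus 0.5 and exact permutation. For correlations, log2 CPM had a prior count of 2. The members, the lists and the tests were chosen with earlier results of these data known. Named genes are the members, Col1a1, genes within 60 kb of a paralog or the nearest neighbour with at least 1 CPM, up to 4 called genes a list and direction, and the genes most like the members (5) or Bglap3 (3). Others are marked. Alternatives were other scalings, filters, DESeq2 1.42.0, limma-voom (limma 3.58.1), marker covariates, thresholds, a replicate block and leaving out each library. The fits were tested on simulated data. Python 3.11.15 with pandas 2.3.3 and matplotlib 3.10.9 made the figures and summaries. Protein sequences were not used here, and residues were counted from the coding sequences.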

Additional observations from a re-analysis of the deposited data

Results flagged for a closer look

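Of 30 tests for a library standing apart in its group (9 members and 6 ratios in each age group), 1 was past the critical value of 0.71 for 5 samples. Young 1 had the highest log2 ratio of Bglap plus Bglap2 to Sparc of the young group, -2.2583, and its gap to the next young library was 0.725 of the group's range. Chance flags about 1 in 20 groups. Young 1 also held the highest young level of Bglap (544 CPM), while its Sparc level of 3876 CPM lay within the young range.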

How the results depend on the processing

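Against 4 members lower and 1 higher, the counts were 2 lower without a filter on low counts, 2 lower with the muscle covariate, 0 lower and 0 higher with the cartilage covariate, 0 lower and 0 higher at the stricter threshold of 0.01, and 0 higher with a filter at 1 CPM. Other settings raised the lower count to 5, namely the filter at 1 CPM, DESeq2, limma-voom and the fit without the robust option. Leaving out 1 library gave 3 to 5 lower and 1 higher. The cartilage covariate was built from markers of which 5 of 12 tested were lower in aged femurs (9 at an unadjusted p under 0.05). With it Spp1 (0.0442), Ifitm5 (0.2815) and Panx3 (0.8201) changed sign, Ibsp stood at -0.10 and Sparc at -0.87, and the whole table gave 7 calls lower and 4 higher. The cause was not tested. Total-count scaling moved the median of all genes to -0.16 on the log2 scale and its calls to 917 lower and 285 higher, against 798 and 812. Calls numbered 1283 lower and 1545 higher with DESeq2, and from 386 lower and 300 higher to 830 lower and 856 higher with 1 library left out.

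As a difference of medians the ratio of Bglap2 to Bglap was -0.1279 and that of Ibsp to Spp1 -0.2913, both opposite in sign, and Bglap3 to Bglap plus Bglap2 (3.6513) and Ifitm5 to Sparc (1.3391) missed the threshold by exact permutation (adjusted p = 0.143 each). Without 1 library the ratios ranged from -0.0218 to 0.0757 (Bglap2 to Bglap), 3.1152 to 3.6593 (Bglap3 to the pair), -0.0913 to 0.1168 (Ibsp to Spp1), 1.2966 to 1.4503 (Ifitm5 to Sparc), -0.6607 to -0.3603 (the pair to Sparc) and -1.1989 to -0.7005 (the pair to Col1a1).

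Replicate numbers did not pair the mice: same-numbered deviations correlated from -0.154 to 0.169. With a replicate block 3 members were lower and 1 higher (Bglap adjusted p = 0.0624 by edgeR), and sign flips within numbers gave the same log2 differences of 3.3793 and 1.3868 with an exact adjusted p of 0.188, where the smallest p is 0.0625.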
